A study of Mus musculus with 6 samples.

Results

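Msi1, Msi2, Igf2bp1, Igf2bp2, Igf2bp3, Lin28b and Elavl1 encode RNA-binding proteins of progenitor and fetal cells and one, Elavl1, that most cells express. They were followed in pancreatic tumour cells of Msi1-null and wild-type mice. The array's platform annotation gave 28 probe sets to only 1 of these symbols, of 45037 probe sets in all, and these stood for 6 of the 7 genes. They are 3 probe sets for Msi1, 8 for Msi2, 4 for Igf2bp1, 6 for Igf2bp3, 1 for Lin28b and 6 for Elavl1. Igf2bp2 was not analysed here. All 28 are given, and each gene is led by its brightest probe set, the one with the highest mean over the 6 arrays.

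RNA came from 6 samples, 3 of genotype Msi1 -/- (called Msi1-null) and 3 labelled wt (called wild-type), each hybridised to 1 Affymetrix mouse array. All 6 samples, the wild-type ones included, carried p53f/f, ptf1a-Cre and 1 mutant copy of an oncogene whose allele name starts with Keas in the labels. All mice were C57BL/6 at 11 weeks of age. The Cre is driven from the ptf1a locus, which is active in pancreatic progenitors and acinar cells, and the labels do not say whether Msi1 was deleted in every tissue or in which part of the gene. They give neither the sex of the mice nor whether animals were pooled, and separate mice are named only in sample names, so the p-values may reflect no more than the variation among these 6 RNA preparations. Values are linear intensities as deposited, and 6 arrays limit the precision.

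Musashi proteins, encoded by Msi1 and Msi2, bind short UAG-containing motifs in the 3' untranslated regions of mRNAs and alter their translation. They are known from neural, intestinal and blood stem cells. The Igf2bp proteins bind Igf2 and other mRNAs through KH domains and stabilise or localise them. Igf2bp1 and Igf2bp3 are made in the embryo, largely silent in adult tissue, and made again in many tumours. Lin28b, of the same fetal programme, binds let-7 microRNA precursors and blocks their maturation, while let-7 in turn represses the mRNAs of Lin28b, the Igf2bp genes and Hmga2. Elavl1, also called HuR, binds AU-rich elements and protects mRNAs from decay.

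The let-7 microRNAs that join Lin28b to its targets were not measured on this array. Their mature sequences in RefSeq (GRCm38.p6) are shown because let-7 target sites pair mainly with the bases these microRNAs share. Of 11 let-7 and miR-98 sequences, 10 had the same seed, bases 2 to 8, given in capitals, and let-7j differed in its last seed base. In that build let-7a lies at chr13:48538239-48538260 on the minus strand (1 of its loci), let-7d at chr13:48536078-48536099 on the minus strand, let-7g at chr9:106178846-106178867 on the plus strand and let-7j at chr3:140028281-140028304 on the plus strand.
mmu-let-7a-5p: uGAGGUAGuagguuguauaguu
mmu-let-7d-5p: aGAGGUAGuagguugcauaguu
mmu-let-7g-5p: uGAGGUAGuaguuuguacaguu
mmu-let-7j: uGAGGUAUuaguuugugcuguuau

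Before the members, 3 properties of the arrays matter. In sex-linked transcripts wild-type replicate 3 stood apart. Xist read 131 to 186 in Msi1-null arrays, against 376, 387 and, in wild-type replicate 3, 6226. Eif2s3y read 716 to 876 in Msi1-null arrays, against 944, 791 and, in wild-type replicate 3, 88.2. The array weights that limma estimates from how far each array departs from its group were lowest for Msi1-null replicate 1, at 0.34, and wild-type replicate 1, at 0.61, and lay between 1.12 and 1.75 in the others. Of the markers of the labelled cell type, all 12 epithelial genes of ductal tumours, among them Krt19, Epcam and Muc1, lay above background on all 6 arrays. All 8 fibroblast markers and 8 of 9 macrophage markers did so too. Acinar markers, of the digestive enzyme cells, had lower means in Msi1-null arrays for 9 of 9, with a median log2 difference of -1.35. Endothelial markers had higher means in Msi1-null arrays for 6 of 6 and T cell markers for 7 of 7, with medians of 0.30 and 0.29, and B cell markers for 4 of 5, with a median of 0.43. None of these markers passed the test, and the part of these cells in the results below was not tested. Background was set on each array at the 95th percentile of 81 olfactory, vomeronasal and bitter taste receptor probe sets, whose genes are largely silent outside sensory tissue, and lay between 163 and 191. In such bulk RNA, fewer cells of a type and less RNA per cell cannot be told apart.

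None of the 28 probe sets passed the test between genotypes. In limma fitted over all 45037 probe sets, 0 members and 0.0% of all probe sets had an adjusted p under 0.05, and the smallest adjusted p of any probe set was 0.9997. An unadjusted p under 0.05 was found for 0 of 28 members, against 3.01% of all probe sets, and the smallest unadjusted p of a member was 0.0523. The member differences, Msi1-null minus wild-type on the log2 scale, lay between -0.29 and 0.23 with a median of -0.01, and 12 were positive and 16 negative. The median over all probe sets was 0.002. One member, an Elavl1 probe set below background, had groups that did not overlap. That is 3.57% of the members, against 7.79% of all probe sets.

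**Figure D1:**
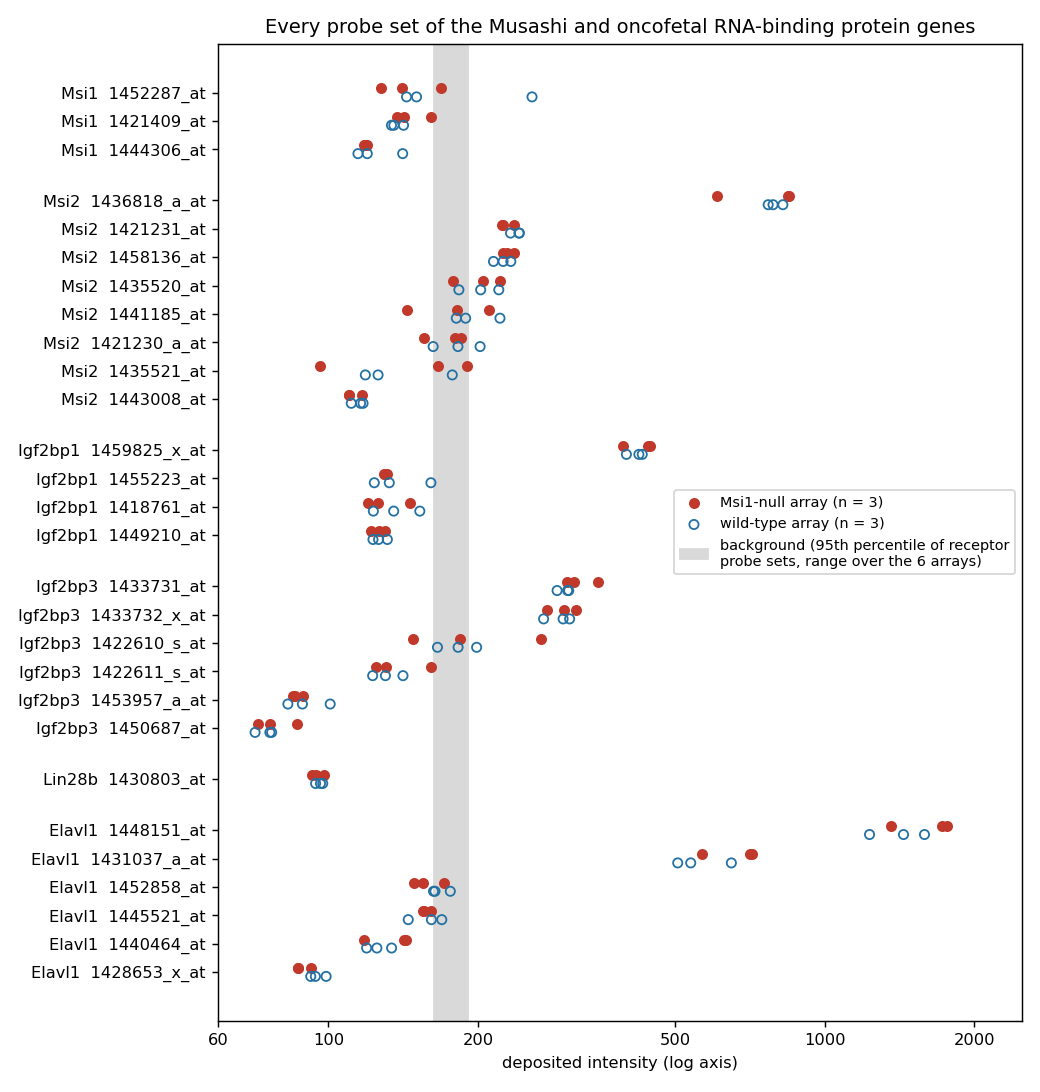
Deposited intensity of each of the 28 probe sets on each array, on a log axis. Filled points are the 3 Msi1-null arrays and open points the 3 wild-type arrays, and the grey band is the range of the background over the 6 arrays. Probe sets for Msi2, Igf2bp1, Igf2bp3 and Elavl1 lie above background on every array, 8 in all, and none for Msi1 or Lin28b does.

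Of the 28 probe sets, 8 were above background on all 6 arrays, 8 on some and 12 on none. The plot of all values shows that the 8 belonged to 4 genes, 3 to Msi2, 1 to Igf2bp1, 2 to Igf2bp3 and 2 to Elavl1. Intensities of different probe sets are not on a common scale, so the genes are not ranked against each other.

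Msi1, the gene the genotype names, gave dim signals in both genotypes. Its brightest probe set, 1452287_at, read 141, 168 and 127 in Msi1-null arrays, against 144, 150 and 257 in wild-type arrays. Wild-type replicates 1 and 2 lay within the Msi1-null range, and wild-type replicate 3, the array with high Xist, stood above it. The part of that array's other properties in this value was not tested. The log2 difference was -0.29 ± 0.22 (SE, 95% interval -0.81 to 0.22, exact two-sided permutation p = 0.4 over 20 assignments, the smallest possible being 0.1), and it was -0.02 without wild-type replicate 3. Probe set 1421409_at read 161, 142 and 138 in Msi1-null arrays, against 134, 142 and 135 in wild-type arrays. Probe set 1444306_at read 120, 118 and 118 in Msi1-null arrays, against 115, 120 and 141 in wild-type arrays, again with wild-type replicate 3 on top. Both lay below background on every array, and over the 3 probe sets 1 of 9 values was above it in each genotype. No label gives the deleted part of Msi1, so these probe sets do not check the genotype. Neural markers, whose cells are known for Msi1, were also dim: 1 of 10 measured was above background on all 6 arrays, Stmn2.

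Msi2, the second Musashi gene, was detected by its brightest probe set in every array. Probe set 1436818_a_at read 607, 843 and 847 in Msi1-null arrays, against 786, 769 and 823 in wild-type arrays. Msi1-null replicates 2 and 3 stood above all wild-type arrays and Msi1-null replicate 1 below them, so the groups overlapped. Msi1-null arrays averaged 766 ± 137 and wild-type arrays 793 ± 27.7 (SD, n = 3 each). The log2 difference was -0.07 ± 0.15 (SE), with a 95% interval of -0.42 to 0.28, or a fold between 0.75 and 1.22, so larger changes in either direction lay outside it. Without Msi1-null replicate 1 the difference was 0.09, and with array weights 0.035.

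Cell type markers moved with this Msi2 probe set. The median of the 9 macrophage markers, each relative to its mean over the 6 arrays on the log2 scale, was 0.41, -0.38 and -0.01 in Msi1-null arrays, against -0.15, 0.14 and -0.14 in wild-type arrays, so it was highest where Msi2 was lowest. The Pearson correlation with 1436818_a_at was -0.85 for macrophage, -0.84 for neutrophil, -0.79 for fibroblast and -0.64 for endothelial markers, over 6 arrays that share their normalization. It was 0.83 for epithelial, 0.68 for B cell and 0.66 for islet markers, and lay between -0.48 and 0.55 for the other 4 lists. Of the macrophage markers, all but Itgam were above background on every array, and the part of these cells in the Msi2 values was not tested.

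The other 7 Msi2 probe sets differed in pattern. Probe sets 1421231_at and 1458136_at were above background throughout and nearly flat, at 236, 224 and 224 in Msi1-null against 233, 242 and 242 in wild-type arrays for the first. The second read 237, 229 and 225 in Msi1-null against 225, 233 and 215 in wild-type arrays. Over the 6 arrays their Pearson correlations with 1436818_a_at were -0.36 and -0.68, given as a description of 6 points on log2(intensity + 1). Probe sets 1435520_at, 1441185_at, 1421230_a_at and 1435521_at, near background, followed 1436818_a_at with correlations between 0.61 and 0.87. Msi1-null replicate 1 was the lowest array in each of these 4, for example 96.3 at 1435521_at, with 190 and 166 in the other Msi1-null arrays, against 126, 178 and 119 in wild-type arrays. Over all 8 probe sets the log2 differences ran from -0.15 at 1441185_at to 0.06 at 1435521_at, with 2 positive and 6 negative. Probe set 1443008_at was below background on all 6 arrays.

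Igf2bp1, an embryonic protein that binds Myc and Actb mRNAs among others, was above background at 1 of 4 probe sets. That probe set, 1459825_x_at, read 445, 441 and 393 in Msi1-null arrays, against 422, 398 and 429 in wild-type arrays, and the groups overlapped. Its log2 difference was 0.03 ± 0.10 (SE, 95% interval -0.19 to 0.26, exact permutation p = 0.6). The suffix _x_at marks probe sets whose probes can match other transcripts. The 3 others, with no such suffix, stayed below background on all 6 arrays, between 120 and 161, and their differences were -0.08, -0.07 and -0.01. The reading of Igf2bp1 above background thus rests on 1 probe set. Of the 11 marker lists, the acinar one moved most closely with it, with a correlation of -0.81 over the 6 arrays, and the others lay between -0.58 and 0.52. The part of acinar cells in the Igf2bp1 values was not tested.

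Igf2bp3, whose human form is known as KOC or IMP3 and serves as a marker of pancreatic cancer, was above background at 2 of 6 probe sets. Probe set 1433731_at read 302, 313 and 349 in Msi1-null arrays, against 305, 303 and 289 in wild-type arrays. Msi1-null replicate 3 was the highest and the other 2 Msi1-null arrays lay close to the wild-type range. The log2 difference was 0.10 ± 0.09 (SE, 95% interval -0.11 to 0.31, exact permutation p = 0.3). Probe set 1433732_x_at read 276, 299 and 316 in Msi1-null arrays, against 306, 271 and 297 in wild-type arrays. It was designed from the same source sequence as 1433731_at, and its suffix marks probes that can match other transcripts. The reading of Igf2bp3 above background on all arrays thus rests on that sequence.

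Msi1-null replicate 3 led in 5 of the 6 Igf2bp3 probe sets. It was most apart at 1422610_s_at, where it read 268, with 148 and 184 in the other Msi1-null arrays, against 199, 166 and 182 in wild-type arrays. The suffix _s_at marks probes shared by several transcripts. Without that array the difference at 1422610_s_at was -0.14, against 0.09 with it, and at 1433731_at it was 0.04. The correlation of 1433731_at with the 11 marker lists lay between -0.43 for neural and 0.61 for cell division markers. The remaining probe sets 1422611_s_at, 1453957_a_at and 1450687_at were below background on every array.

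Lin28b had 1 probe set, 1430803_at, at 92.6, 97.9 and 94.2 in Msi1-null arrays, against 94.2, 97.4 and 96.4 in wild-type arrays. All 6 values were below background and within a log2 range of 0.08, so a Lin28b transcript was not detectable with this probe set. Its relative Lin28a, the other inhibitor of let-7 maturation, was likewise below background on all 6 arrays, averaging 131 in Msi1-null arrays, against 134 in wild-type arrays.

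Elavl1 was clearly detected by a pair of probe sets and had the largest positive differences of the 28, without passing the test. Probe set 1448151_at read 1359, 1766 and 1725 in Msi1-null arrays, against 1230, 1440 and 1587 in wild-type arrays. Probe set 1431037_a_at read 567, 712 and 707 in Msi1-null arrays, against 505, 537 and 648 in wild-type arrays. In both, Msi1-null replicates 2 and 3 stood above all wild-type arrays, and Msi1-null replicate 1 lay inside the wild-type range. The log2 differences were 0.19 ± 0.15 (SE, 95% interval -0.16 to 0.53, exact permutation p = 0.3) and 0.23 ± 0.14 (SE, 95% interval -0.10 to 0.57, exact permutation p = 0.2). The pair varied together over the 6 arrays, with a Pearson correlation of 0.96.

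The lowest array at both Elavl1 probe sets was wild-type replicate 1, which also had the lowest median of cell division markers. The median of 12 such markers, relative to each gene's mean over the 6 arrays, was -0.003, 0.40 and 0.50 in Msi1-null arrays, against -0.65, -0.19 and -0.05 in wild-type arrays on the log2 scale. All 12 markers had higher means in Msi1-null arrays, and 0 passed the test. The groups did not overlap for 8 of them, where 4.0% of all genes, by brightest probe set, were higher without overlap. These markers were read on the same 6 arrays and are not independent of each other. The correlation of 1448151_at with that median was 0.91 over the 6 arrays, a description of points that share libraries and normalization, and the part of cell division in the Elavl1 values was not tested. Lymphocyte markers moved with it too, at 0.83 for B cell and 0.76 for T cell markers. The T cell median was 0.02, 0.40 and -0.01 in Msi1-null arrays, against -0.28, -0.09 and -0.03 in wild-type arrays, and the B cell median was -0.81, 0.74 and 0.10 in Msi1-null arrays, against -0.70, 0.16 and -0.17 in wild-type arrays. Of these markers 2 of 7 and 2 of 5 were above background on all 6 arrays. The correlation was -0.67 for neural and -0.66 for neutrophil markers and lay between -0.49 and 0.35 for the other lists, and the part of these cells was not tested. Without wild-type replicate 1 the Elavl1 difference was 0.09 at 1448151_at and 0.16 at 1431037_a_at. Without Msi1-null replicate 1 it was 0.31 and 0.34.

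The other 4 Elavl1 probe sets were dim. Probe set 1428653_x_at, the one member with no overlap between groups, read 86.8, 86.7 and 92.1 in Msi1-null arrays, against 98.9, 94.1 and 92.1 in wild-type arrays. The nearest values of the groups, 92.09 in Msi1-null replicate 3 and 92.10 in wild-type replicate 3, were all but equal, and all 6 lay below background. The difference was -0.10 ± 0.04 (SE), of the opposite sign to the bright pair. Probe sets 1452858_at, 1445521_at and 1440464_at differed by -0.08, -0.01 and 0.09.

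**Figure D2:**
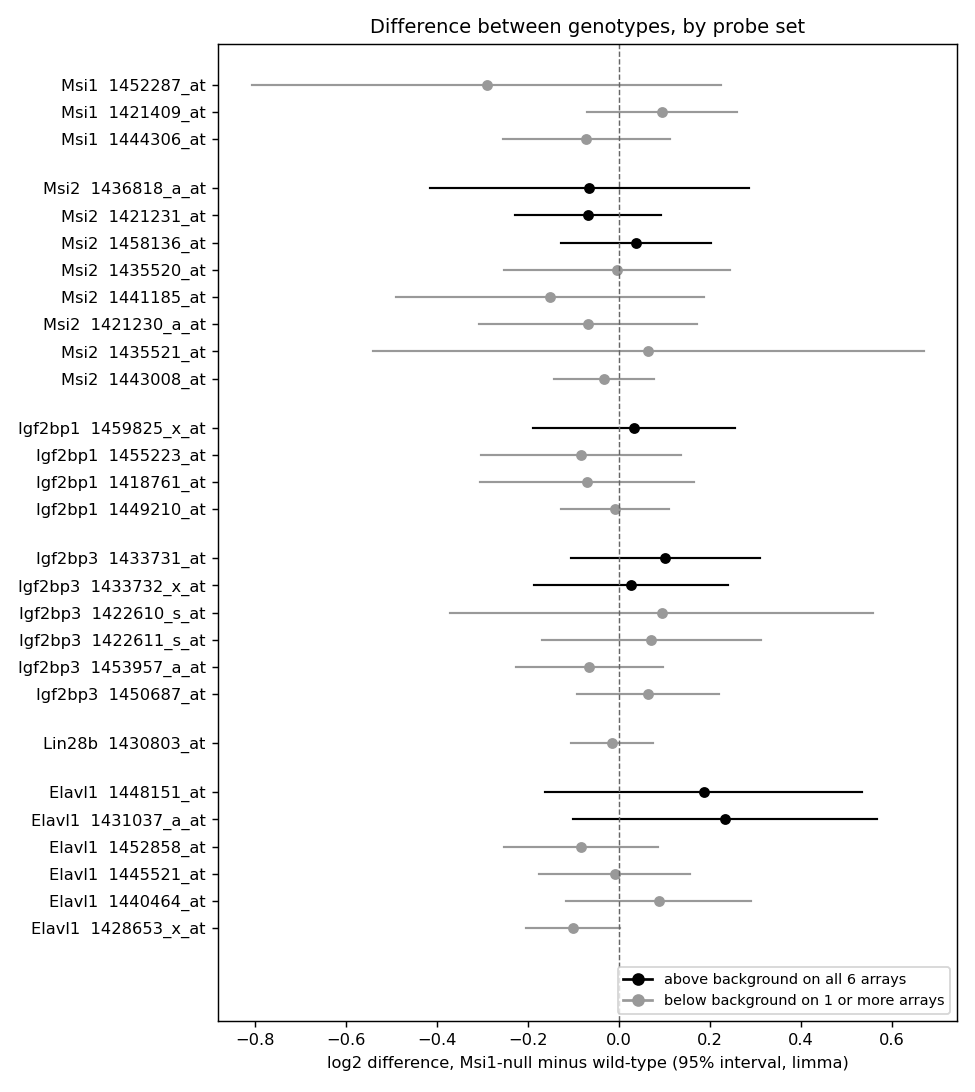
Log2 difference, Msi1-null minus wild-type, of each probe set with its 95% interval from limma. Black marks probe sets above background on all 6 arrays and grey the others. Intervals of all 28 include 0, and the widest belong to dim or array-dependent probe sets such as 1435521_at and 1452287_at.

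The 95% intervals, drawn in the plot of differences, show what the arrays could resolve. For the brightest probe sets above background, the intervals in fold ran from 0.75 to 1.22 for Msi2, 0.88 to 1.19 for Igf2bp1, 0.93 to 1.24 for Igf2bp3 and 0.89 to 1.45 for Elavl1. They do not show that the genotypes are alike, only that 2-fold changes of these signals lay outside. These intervals are on log2(intensity + 1), and where signals lie near background the differences of transcripts are understated.

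The genes most like each member across the 6 arrays were found among 5393 probe sets of other genes, above background throughout and with a log2 range of at least 0.5. The members were not held to that range. Theirs was 0.18 for Igf2bp1, 0.27 for Igf2bp3, 0.48 for Msi2 and 0.52 for Elavl1. For Msi2 they were Polr1a, the catalytic subunit of RNA polymerase I, Pura, a protein that binds purine-rich nucleic acids, and Hnrnpa2b1, a nuclear RNA-binding protein, with Pearson correlations of 0.998, 0.996 and 0.996. Each was lowest in Msi1-null replicate 1, and 7.36% of the candidates correlated above 0.9 with Msi2. For Elavl1 they were Mien1, Xpo1, the nuclear export receptor, and Mogs, a glucosidase of the endoplasmic reticulum, at 0.994, 0.991 and 0.990, with 3.67% above 0.9.

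For Igf2bp3 the genes most like it were Serpinb1a, an inhibitor of neutrophil proteases, Gatad1, a chromatin-associated zinc finger protein, and Vamp5, a vesicle protein, at 0.967, 0.939 and 0.933. Gatad1 read 1362 in Msi1-null replicate 3, with 628 and 680 in the other Msi1-null arrays, against 653, 637 and 636 in wild-type arrays, so the array highest in Igf2bp3 stood apart in Gatad1 as well. For Igf2bp1 they were A930005H10Rik, Glipr1 and Pla2g4a, a phospholipase, at 0.977, 0.949 and 0.871. Only 9 candidates for Igf2bp3 and 2 for Igf2bp1 passed 0.9. These are the highest of 5393 correlations over 6 arrays and are given as descriptions. Among the members themselves, the brightest probe sets of the 4 detected genes correlated between -0.56 (Igf2bp1 with Igf2bp3) and 0.58 (Msi2 with Elavl1).

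**Figure D3:**
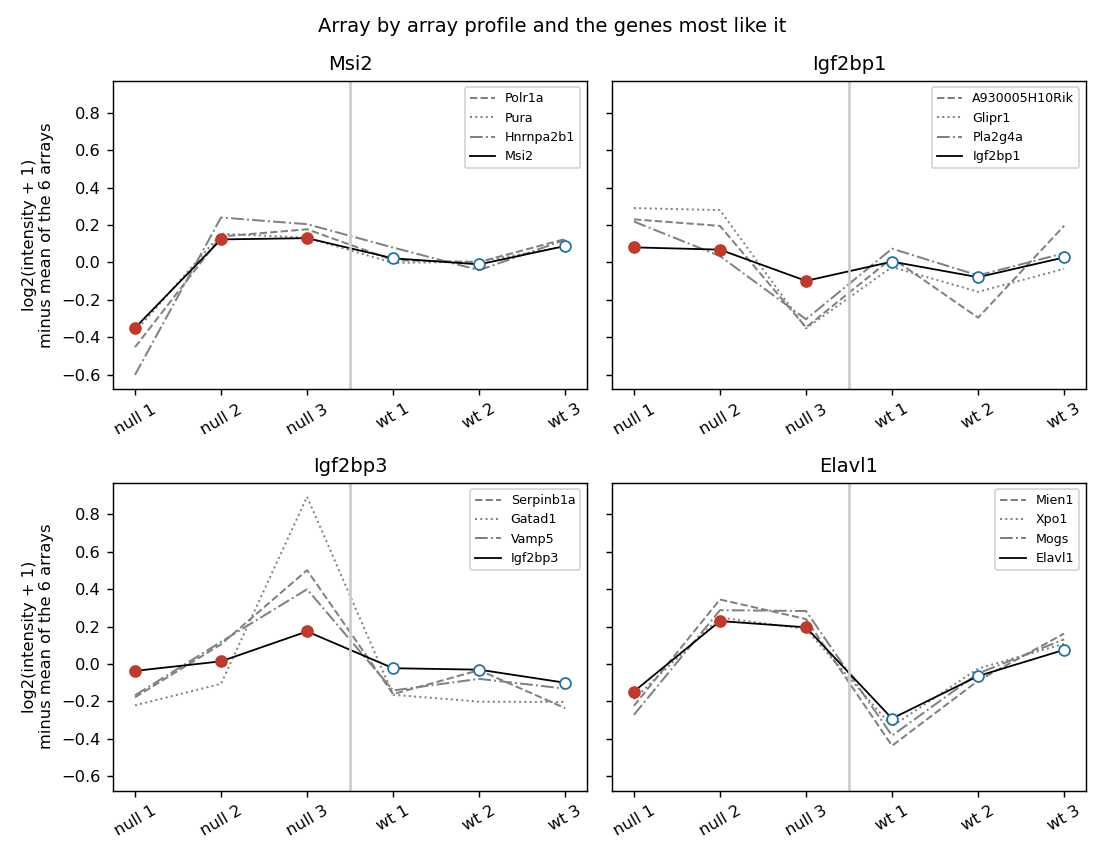
Log2(intensity + 1) minus the mean of the 6 arrays, for the brightest probe set of the 4 detected genes (black line) and the 3 genes most like it (grey lines). Filled points are Msi1-null arrays, left, and open points wild-type arrays, right. Msi2 is low in Msi1-null replicate 1, Igf2bp3 is highest in Msi1-null replicate 3, and Elavl1 is lowest in wild-type replicate 1.

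Other mRNA-binding proteins that act on stability and translation were described as a list. Of 41 measured, 17 had higher and 24 lower means in Msi1-null arrays, with a median log2 difference of -0.02, against 0.001 and 50.3% higher over the brightest probe sets of all 18193 genes. None passed the test. The groups did not overlap at 1 gene that was higher and 3 that were lower in Msi1-null arrays, where 4.0% of all genes were higher without overlap and 4.28% lower. The higher one was Hnrnpd, also called AUF1, a factor that binds AU-rich mRNAs, at 0.10 ± 0.08 (SE), and the lower ones were Mex3a, Syncrip and Cpeb3.

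Mex3a, an RNA-binding ubiquitin ligase of intestinal progenitors, read 467, 502 and 555 in Msi1-null arrays, against 621, 646 and 787 in wild-type arrays. Every Msi1-null array lay below every wild-type array, and the log2 difference was -0.43 ± 0.13 (SE, unadjusted p = 0.0122, adjusted p = 0.9997 in limma). Syncrip, a protein reported to bind the same RNAs as Musashi 2 in leukaemia, read 717, 746 and 871 in Msi1-null arrays, against 986, 898 and 1087 in wild-type arrays. Its groups did not overlap either, with a difference of -0.35 ± 0.13 (SE, unadjusted p = 0.0262, adjusted p = 0.9997 in limma). Cpeb3 and Cpeb1, which control cytoplasmic polyadenylation and translation, differed by -0.20 ± 0.09 and -0.22 ± 0.13 (SE). Cpeb1 differed by -0.12 without Msi1-null replicate 3 and by -0.14 without wild-type replicate 1. The neuronal Elavl relatives were at or near background, with Elavl2 and Elavl4 below it on all 6 arrays and Elavl3 above it on 4.

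Genes of let-7 maturation and microRNA processing were 11, of which 4 had higher and 7 lower means in Msi1-null arrays, with a median of -0.04. Tut4 and Tut7, the uridyl transferases that act with Lin28 on let-7 precursors, differed by -0.25 ± 0.16 and -0.15 ± 0.10 (SE). Tut7 read 1048, 1053 and 1151 in Msi1-null arrays, against 1187, 1223 and 1198 in wild-type arrays, without overlap. It was the 1 gene of this list without overlap, where 4.28% of all genes were lower without overlap. Dgcr8, the RNA-binding partner of Drosha, differed by -0.22 ± 0.11, and Dicer1, which cuts precursors, by -0.11 ± 0.12 (SE). Tut4 was -0.11 and Dicer1 -0.02 without wild-type replicate 1. Leaving out Msi1-null replicate 2 gave -0.05 for Dicer1, and leaving out wild-type replicate 3 gave -0.19.

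mRNAs reported as Musashi targets had higher means for 5 and lower for 8 of 13 measured, with a median of -0.09. Numb, the Notch inhibitor and first known target of Musashi 1, read 658, 691 and 796 in Msi1-null arrays, against 800, 789 and 841 in wild-type arrays, a difference of -0.18 ± 0.11 (SE). Msi1-null replicates 1 and 2 were below all wild-type arrays and Msi1-null replicate 3 lay among them. Smad3, a mediator of TGF-beta signals, differed by -0.31 ± 0.16, Cdkn1a, the p21 cell cycle inhibitor, by -0.43 ± 0.26, and Hmga2, a fetal chromatin protein, by -0.55 ± 0.34 (SE). Smad3 was -0.16 without Msi1-null replicate 1. Cdkn1a was -0.65 without Msi1-null replicate 3 and -0.12 without Msi1-null replicate 2, and Hmga2 was -0.31 without Msi1-null replicate 1 and -0.95 without Msi1-null replicate 3. As Musashi proteins act on translation, mRNA levels on these arrays do not measure the output of these targets.

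mRNAs bound by Igf2bp proteins had higher means for 3 and lower for 7 of 10 measured, with a median of -0.04. Igf2, the growth factor for which the family is named, read 314, 486 and 277 in Msi1-null arrays, against 2509, 449 and 797 in wild-type arrays. Wild-type replicate 1 stood far above the rest and the groups overlapped. The difference was -1.47 ± 0.57 (SE, unadjusted p = 0.0355, adjusted p = 0.9997 in limma), and -0.78 without that array. Mitf and Gli1, transcription factors whose mRNAs Igf2bp1 is known to bind, differed by -0.42 ± 0.26 and -0.28 ± 0.21 (SE). Gli1 was above background in wild-type replicate 1 alone, at 268, and its difference was -0.01 without that array. Mitf was -0.23 without wild-type replicate 1. Mitf was -0.65 without Msi1-null replicate 1 and -0.21 without Msi1-null replicate 2.

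let-7 target mRNAs, apart from the members, had higher means for 7 and lower for 10 of 17 measured, with a median of -0.03. Igf1r, the receptor for insulin-like growth factors, read 539, 521 and 695 in Msi1-null arrays, against 999, 704 and 703 in wild-type arrays. The groups did not overlap, by a narrow gap between Msi1-null replicate 3 and wild-type replicate 3, and the difference was -0.45 ± 0.18 (SE, unadjusted p = 0.0409, adjusted p = 0.9997 in limma). It was -0.28 without wild-type replicate 1. Cdk6 differed by 0.38 ± 0.30 (SE) through Msi1-null replicate 3 at 3166, by -0.01 without it and by 0.62 without Msi1-null replicate 1. Plag1, below background throughout, was higher in Msi1-null arrays by 0.09 ± 0.04 (SE), also without overlap. In this list 1 gene was thus higher and 1 lower without overlap, where 4.0% of all genes were higher and 4.28% lower.

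Elavl1 target mRNAs had higher means for 8 and lower for 13 of 21 measured, with a median of -0.06. Ccna2, the S and G2 phase cyclin, read 524, 721 and 747 in Msi1-null arrays, against 253, 467 and 464 in wild-type arrays, without overlap. Its difference was 0.79 ± 0.26 (SE, unadjusted p = 0.0181, adjusted p = 0.9997 in limma), and 0.49 without wild-type replicate 1. Ccna2 is itself a gene of dividing cells, whose markers had higher means in Msi1-null arrays, and the part of cell division in its difference was not tested. Fos and Pim1 differed by -0.29 ± 0.145 and -0.29 ± 0.16 (SE), and Pim1 by -0.17 when Msi1-null replicate 2 was left out and -0.15 when wild-type replicate 1 was. Parg, which degrades poly(ADP-ribose), was the other gene without overlap, at -0.12 ± 0.10 (SE). In this list 1 gene was thus higher and 1 lower without overlap, where 4.0% of all genes were higher and 4.28% lower.

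Oncofetal genes outside the members had higher means for 4 and lower for 6 of 10 measured, with a median of -0.14. Of the 10, 4 were above background on all 6 arrays, and the genes with higher means were not among them. Tpbg, the oncofetal trophoblast glycoprotein 5T4, read 441, 397 and 411 in Msi1-null arrays, against 620, 534 and 515 in wild-type arrays. Its groups did not overlap, with a difference of -0.41 ± 0.11 (SE), the smallest unadjusted p of these lists at 0.00611 and an adjusted p of 0.9997 in limma. Without each array in turn it lay between -0.47 and -0.33. Plag1, below background, was higher in Msi1-null arrays without overlap. In this list 1 gene was thus higher and 1 lower without overlap, where 4.0% of all genes were higher and 4.28% lower. Peg3, an imprinted gene, read 187, 447 and 612 in Msi1-null arrays, against 807, 543 and 662 in wild-type arrays, a difference of -0.83 ± 0.40 (SE) that was -0.34 without Msi1-null replicate 1. Across the 7 lists 0 genes passed the test, and Hmga2, Igf2, Plag1 and others stand in more than one list.

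**Figure D4:**
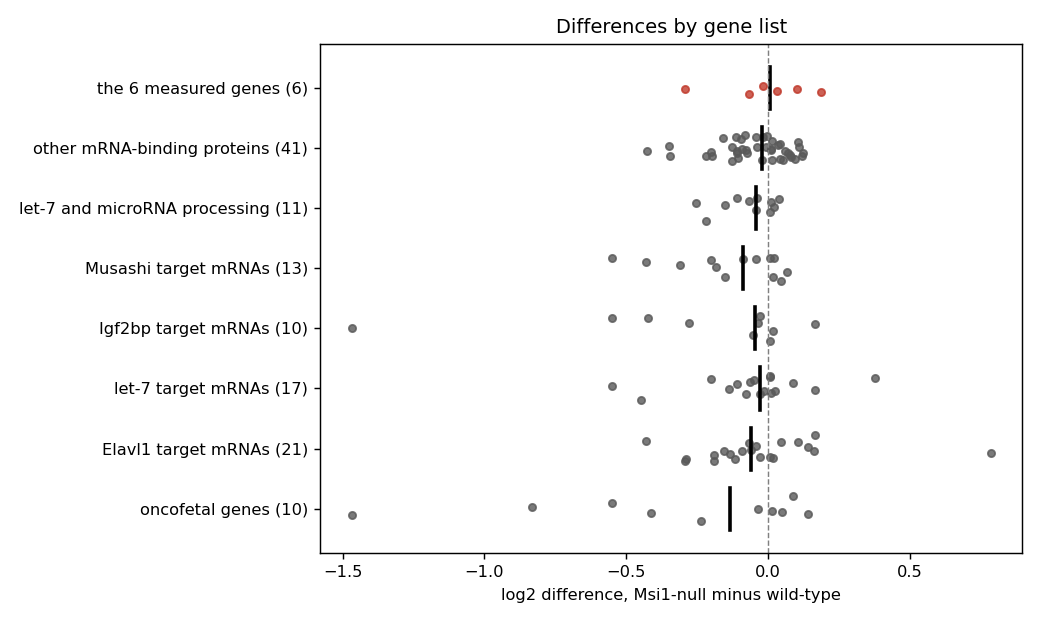
Log2 difference, Msi1-null minus wild-type, of the brightest probe set of each gene in the measured members and 7 lists. Each point is a gene, the number measured is in brackets, black bars are list medians and the dashed line is the median of all 18193 genes. Medians lie between -0.14 for oncofetal genes and 0.01 for the members.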

How the data were processed

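Per the submitters' processing notes, GCRMA produced the probe set values, correcting background by probe sequence and normalizing quantiles. The deposited unit is linear intensity, without version, settings or any later rescaling given in the sources used here. Of 45101 probe sets 64 controls were left out. Platform annotation gave 34945 of the rest 1 symbol, 932 several and 9160 none, and symbols were updated by Entrez ID through a RefSeq table (GRCm38.p6, 34741 entries matched). No coordinates are given for probe sets, since the array table names no genome build.

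Values were analysed as log2(intensity + 1). A model with genotype as its only term was fitted to all probe sets (limma 3.58.1, lmFit and eBayes with trend, R 4.3.3), with Benjamini-Hochberg adjustment at 0.05. In simulations of the comparison over 45037 probe sets, 94.6% of log2 changes of 1 and 99.4% of those of 2 were recovered. False calls numbered 13.6 and 11.6 per run. The simulated noise was normal, independent and equal across arrays, whereas the estimated array weights here ran from 0.34 to 1.75. These shares therefore do not tell how many real changes of that size these arrays would find.

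The members and gene lists were chosen with earlier results of these data known. Lists are described by counts and medians of each gene's brightest probe set. Named list genes are the 4 with the smallest unadjusted p. Likeness was ranked by Pearson correlation, 3 genes for each member above background on all arrays. Elavl2, Elavl3, Elavl4, Lin28a, Stmn2, Hnrnpd, Parg and the markers were named after their values were seen. The alternatives were other filters, scalings, pseudocounts and probe set choices, weights per array, a replicate block and leaving out each array in turn.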

Additional observations from a re-analysis of the deposited data

How the results depend on the processing

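Of 227 alternative values, 205 stayed within set limits: the direction and side of the threshold for a tested difference, 1 SD between replicates for a median and 1.5 times for a count. Within these limits 4 medians still changed sign. That of the members, 0.0081, was -0.016 without Msi1-null replicate 2, -0.0024 without wild-type replicate 2 and -0.0246 with probe sets averaged, and that of let-7 targets was 0.0159 without Msi1-null replicate 1. No member passed the adjusted threshold under any alternative that gave it a value. No probe set passed in any fit except without Msi1-null replicate 1, where Ighm did (log2 difference 1.89, adjusted p = 0.0426 in limma), so calls ran from 0 to 1 over the fits without 1 array. Probe sets with an unadjusted p under 0.05 numbered 1355, 2120 with the replicate block, 2153 with array weights, 757 after the filter on receptor background, and 886 (without wild-type replicate 1) to 2723 (without Msi1-null replicate 1) with 1 array left out.

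The brightest Msi2 probe set turned to 0.035 with array weights and ranged from -0.15 to 0.0933 with 1 array left out. Igf2bp1 turned to -0.0327 with its probe sets averaged and to -0.0843 at its brightest probe set without _x_at or _s_at. Ranges with 1 array left out were -0.44 to -0.02 for Msi1, 0.0009 to 0.09 for Igf2bp1, 0.04 to 0.15 for Igf2bp3, -0.0389 to 0.0009 for Lin28b and 0.09 to 0.31 for Elavl1.

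Members without overlap numbered 2 of 28 with median centring, where 7.41% of all probe sets did not overlap. With 1 array left out they numbered 2 to 8 of 28, against 14.9% to 23.7% of all probe sets. The 8 came without Msi1-null replicate 1, where 23.7% of all probe sets did not overlap. With 1 array left out, the medians ranged from -0.13 to -0.0502 for Igf2bp targets, -0.11 to 0.0222 for Elavl1 targets, -0.0854 to 0.0159 for let-7 targets, -0.17 to -0.0418 for Musashi targets, -0.096 to -0.0176 for the let-7 pathway, -0.0539 to -0.0031 for the other mRNA-binding proteins, -0.17 to -0.11 for oncofetal genes and -0.016 to 0.0471 for the members. Members above background on all arrays numbered 23 against the receptor median. The cause of these changes was not tested.

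Same-numbered arrays of the genotypes deviated together with correlations of 0.17, -0.09 and 0.28, and 4 of 6 arrays correlated best with their own number. The sample names give same-numbered arrays of both genotypes the same mouse number, without saying what it stands for. The main fit used genotype alone and the replicate block was an alternative, so these values do not settle whether the numbers mark pairs.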
